A study of Mus musculus with 2 samples.

Results

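The unfolded protein response (UPR) genes examined here were 10 of the 24421 gene symbols in the count files, chosen by name: the transcription factors *Xbp1*, *Atf4* and *Ddit3*, the endoplasmic reticulum (ER) chaperone *Hyou1*, the chaperone cofactor *Sdf2l1*, the lectin chaperones *Calr* and *Canx*, the disulfide isomerases *Pdia3* and *Pdia4*, and *Herpud1*, which serves the disposal of misfolded ER proteins. Of these genes, only *Hyou1* differed by more than 1.5-fold between the libraries, at 41.4% of its WT level in the Ezh2 KO-labelled library. The other 9 lay within 1.5-fold, and 8 of the 10 within 0.32 of equality on the log2 scale.

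RNA was measured by RNA-seq in hematopoietic stem cells (HSCs) from C57BL/6 mice, with 1 library for each group. The WT group carried wild-type *Ezh2* (Ezh2 +/+) and the other group deleted *Ezh2* (Ezh2 Δ/Δ), and both carried the tamoxifen-dependent recombinase CreERT (+/-). Per the labels, bone marrow from CD45.2 donors of either genotype was placed in lethally irradiated CD45.1 mice, which then received 100 µl of tamoxifen (10 mg/ml) daily for 5 days, and HSCs were sorted 1 month later as CD150+ CD48- CD34- Flt3- cells among lineage-negative, Sca-1+ and c-kit+ cells. The sort markers in the labels name no CD45 allele, so they do not tell donor cells from HSCs that the host still had. The promoter that drives the recombinase, the ages and the number of mice pooled in a library were not given in the sources used here.

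With 1 library per group, no difference below has a replicate check and no p-value is given. Intervals are 95% intervals for counting error only, and they take each read as a separate molecule. Reads from amplified cDNA without molecular identifiers need not be, so the intervals may be too narrow even for counting error. In bulk samples, fewer cells of a type and less RNA per cell cannot be told apart.

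The UPR is the answer of a cell to unfolded protein in the ER, the compartment in which membrane and secreted proteins fold. The sensors IRE1 (*Ern1*), PERK (*Eif2ak3*) and ATF6 (*Atf6*) sit in the ER membrane. IRE1 activates XBP1 by splicing its mRNA, PERK slows translation while favouring ATF4, and ATF6 is cut into an active factor, and these factors raise chaperones, oxidoreductases and degradation genes. HSCs make protein slowly, and the UPR is known to influence whether stressed HSCs survive.

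The splicing step leaves a mark that gene-level counts do not resolve. In the GENCODE transcript of *Xbp1* (mm10, which names the assembly GRCm38), IRE1 removes 26 bases of coding exon 4 of 5, at chr11:5524279-5524304 on the plus strand, and the reading frame then runs for 371 codons in place of 267. The stretch is shown because this cut, and not the amount of *Xbp1* RNA, reports IRE1 activity. The capitals mark the removed bases in chr11:5524267-5524316.
Xbp1: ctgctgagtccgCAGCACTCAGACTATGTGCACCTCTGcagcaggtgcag
The stretch was found as a pair of loops of the form C, any base, G, C, any base, G, separated by 20 bases. Of 2 such pairs in the transcript, it was the pair whose removal gave the longer frame. A count per gene sums reads from the spliced and the unspliced form, so the values of *Xbp1* below do not separate them. Likewise *Atf4* is controlled largely at translation, which RNA counts do not show.

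Promoters were then searched for the elements that UPR factors bind. The RefSeq promoter windows (GRCm38.p6) cover 250 bases before to 50 after the start, and 9 of the 10 genes had one, all but *Hyou1*. The ER stress response element (ERSE), bound by ATF6 with NF-Y, was searched on both strands as CCAAT followed after any 9 bases by CCACG, and ERSE-II as ATTGG followed after any 1 base by CCACG. Both elements contain CCACG. *Calr* and *Canx* each held 1 ERSE and *Herpud1* held 1 ERSE-II, while 0.119% and 0.0365% of all 32851 windows held one. The stretches are shown because these 3 genes carry the letters that ATF6 reads, with the matched letters in capitals, read along the strand of the gene.
Calr (chr8:84847065-84847103, minus strand, 172 to 134 bases upstream of the start): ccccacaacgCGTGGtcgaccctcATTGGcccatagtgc
Canx (chr11:50325790-50325828, minus strand, 155 to 117 bases upstream of the start): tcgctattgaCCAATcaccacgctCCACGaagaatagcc
Herpud1 (chr8:94386367-94386397, plus strand, 62 to 32 bases upstream of the start): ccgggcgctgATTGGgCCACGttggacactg
In *Calr* the element lies on the opposite strand to the gene, so it reads here in reverse complement. The C/EBP-ATF response element, taken as TGATG, any 1 base and AA, occurred in *Herpud1* (on the opposite strand, 112 to 105 bases upstream) and in 3.97% of all windows. Neither the core of the unfolded protein response element (TGACGTGG, in 0.676% of windows) nor the cAMP response element (TGACGTCA, in 1.79%) occurred in the 9 windows. The last pair of motifs share the letters TGACGT. A match is a description of sequence and not a site shown to be bound.

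The libraries differed in ways that bear on every ratio below. Gene counts totalled 5763118 in WT and 4157280 in the Ezh2 KO-labelled library, so that 3 counts corresponded to 0.521 and 0.722 CPM, which are counts rescaled so that each library has the same total. RNA counted for the targeted gene, *Ezh2*, did not fall, with 166 and 129 counts or 142.5 and 150.3 normalized counts (log2 ratio 0.08, interval -0.27 to 0.42). A count per gene sums reads over all exons, so it does not show whether part of the gene was deleted. The second library is therefore named by its label throughout. All 12 HSC markers were above 3 counts in both libraries, and they summed to 5234 and 5502 CPM. Of the markers that the sort selects against, 8 summed to 198.9 and 273.3 CPM, most of it *Cd34* RNA (957 and 829 counts), with *Cd3e* and *Ms4a1* at 0 in both libraries. *Xist* had 801 and 4 counts, and 4 genes on Y had 0 counts in WT and 106 to 275 in the other library. By these sex-linked genes, WT was from female cells and the other library from male cells. Sex therefore cannot be told apart from the genotype label in any ratio. Summed levels of 8 eosinophil markers were 1.22 CPM in WT (6 of them at 0) and 780.8 CPM in the Ezh2 KO-labelled library. The 10 granulocyte granule genes summed to 2098 and 3918 CPM, with 6 higher and 1 lower by more than 1.5-fold. The 10 immediate-early genes summed to 13718 and 7164 CPM, and all were lower by more than 1.5-fold. The part of these differences in the results for UPR genes was not tested. Markers of plasma cells, whose secretory ER is rich in UPR products, summed to 63.9 and 59.4 CPM over 9 genes, while the median log2 ratio of the 7 tested was 0.39, of opposite sign to the change in the sum. Most of the sum came from *Tnfrsf13b* (156 and 70 counts, lower by more than 1.5-fold), *Fkbp11* (95 and 80) and *Sdc1* (84 and 52). *Tnfrsf17* had 0 counts in both libraries, *Jchain* had 6 and 7, and *Mzb1* had 8 and 8. These 6 were named after their values were seen, and their part in the results was not tested.

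Together the 10 UPR genes took 14173 counts in WT and 10365 in the Ezh2 KO-labelled library, or 0.246% and 0.249% of all gene counts. All 10 had a mean of at least 1 CPM in the 2 libraries, the level set for comparison, and 9 had a mean of at least 100 normalized counts. They lie on 8 chromosomes. Normalized counts are raw counts divided by a size factor for each library. Fold changes are log2 ratios of the Ezh2 KO-labelled library over WT, of normalized counts plus 1.

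Per kilobase of exon, *Calr* was the most abundant of the 10 genes and *Hyou1* the least, in both libraries. In CPM per kilobase, for WT and then for the Ezh2 KO-labelled library, the levels were 245.5 and 245.0 for *Calr*, 180.5 and 199.5 for *Pdia3*, and 108.3 and 114.6 for *Canx*. These 3 stood apart from each other and from the rest beyond counting error. *Atf4* (67.6 and 65.6), *Herpud1* (61.7 and 51.1) and *Pdia4* (58.8 and 65.1) followed, and in WT their counting intervals overlapped between neighbours. *Xbp1* (44.7 and 38.8), *Sdf2l1* (20.8 and 22.1), *Ddit3* (9.62 and 13.2) and *Hyou1* (6.70 and 2.83) were lowest. *Herpud1* ranked above *Pdia4* in WT and below it in the other library, and by these lengths the order was otherwise the same in both. The exon length of *Hyou1* (7230 bases) includes retained introns. When all 10 genes were instead given the length of their longest coding transcript (4489 bases for *Hyou1*), *Hyou1* stood at 10.8 and 4.56 and remained below the next lowest gene in each library, *Ddit3* in WT (18.5) and *Sdf2l1* in the other (22.1). By those lengths *Xbp1* (68.1 and 59.2) ranked above *Pdia4* (58.8 and 65.1) in WT and below it in the Ezh2 KO-labelled library. *Sdf2l1* (20.8 and 22.1) likewise ranked above *Ddit3* (18.5 and 25.4) in WT and below it in the other library, so the middle and lower ranks depend on the length used.

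**Figure D1:**
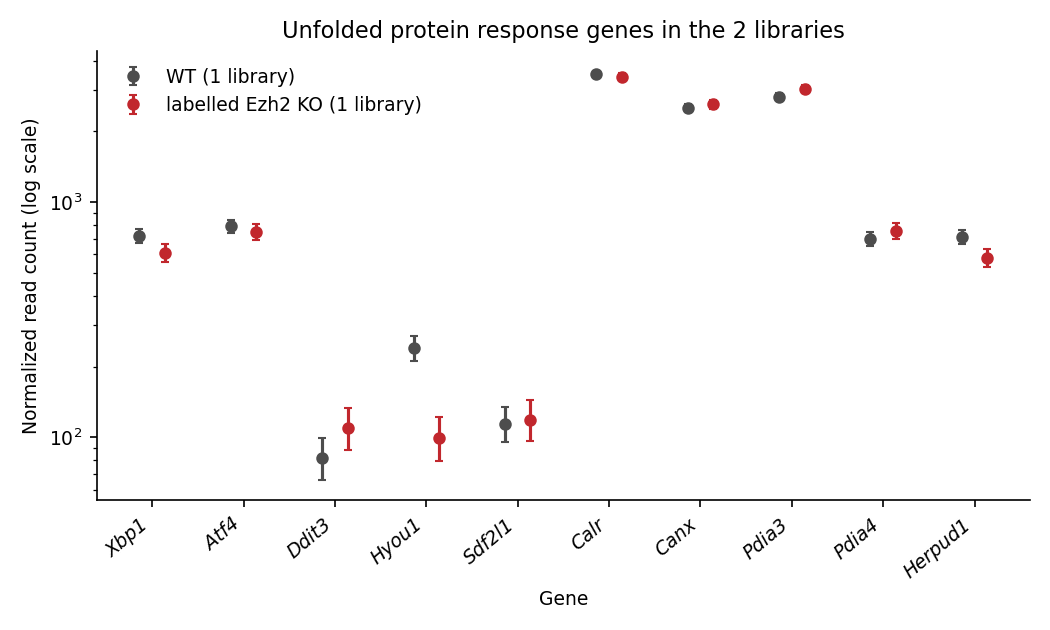
Normalized read count (log axis) of each of the 10 genes in the WT library (grey) and the Ezh2 KO-labelled library (red), 1 library each, with exact 95% Poisson intervals for counting error. Only the points of *Hyou1* are widely separated, at 239.4 and 99.1, while *Calr*, *Canx* and *Pdia3* lie at 2513 or higher in both libraries.

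To examine the transcription factors, their levels were compared between the libraries. *Xbp1* (chr11:5520659-5525893), the factor that IRE1 activates, had 836 counts in WT and 524 in the Ezh2 KO-labelled library, or 717.4 and 610.6 normalized counts. It was slightly lower in the latter, with a log2 ratio of -0.23 (interval -0.39 to -0.07), inside 1.5-fold. *Atf4* (chr15:80255184-80257541), the factor that PERK favours, had 919 and 643 counts, or 788.6 and 749.3 normalized counts. Its log2 ratio of -0.07 (-0.22 to 0.07) could not be told from no difference. *Ddit3* (chr10:127290774-127296288), which encodes CHOP, a factor that promotes cell death under lasting stress, had 95 and 94 counts, or 81.5 and 109.5 normalized counts. This was the highest ratio of the 10 genes (0.42), but at this depth the interval ran from -0.0008 to 0.85 and reached 0. Exons of *Ddit3* overlap *Mars* over 68 bases and *Gm4189* over 13 bases, both on the opposite strand, and whether reads were counted by strand is not known. A second annotated gene, also named *Ddit3*, overlaps them on the same strand over 105 bases.

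*Hyou1* was the gene that differed. HYOU1 is a large ER chaperone of the Hsp70 family that also serves as a nucleotide exchange factor of BiP, the product of *Hspa5*. *Hyou1* (chr9:44379490-44392369) had 279 counts in WT (Poisson interval 247.2 to 313.7) and 85 in the Ezh2 KO-labelled library (67.9 to 105.1), or 239.4 and 99.1 normalized counts. The log2 ratio was -1.26 (interval -1.64 to -0.92), or 2.40-fold lower. Among the 8083 genes with a mean of at least 100 normalized counts, *Hyou1* had the 16th lowest ratio. No other annotated gene overlaps its exons. For every 100 counts of *Hspa5*, *Hyou1* had 8.44 in WT and 4.75 in the Ezh2 KO-labelled library, a comparison that needs no scaling. Against 100 counts of *Calr* it had 6.85 and 2.90. *Sdf2l1* (chr16:17130138-17132383), which works with the BiP cochaperones, had 133 and 102 counts, or 114.1 and 118.9 normalized counts. Its log2 ratio was 0.06 (-0.33 to 0.44), and the sign turned (-0.06) once the dependence of ratios on gene length and GC content was removed.

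The lectin chaperones, which hold glycoproteins until they fold, differed little. *Calr* (chr8:84841850-84846934), the soluble one, had 4074 and 2933 counts, or 3496 and 3418 normalized counts. Its log2 ratio was -0.03 (-0.10 to 0.04), the smallest difference of the 10 genes. Reads of *Calr* that also align to another copy enter neither count, and copies of the 10 genes were not searched for. *Canx* (chr11:50293961-50325673), the membrane-bound one, had 2928 and 2235 counts, or 2513 and 2604 normalized counts, with a log2 ratio of 0.05 (-0.03 to 0.13). Both genes carry an ERSE in the windows shown above.

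Both disulfide isomerases had ratios above 0, well inside 1.5-fold. *Pdia3* (chr2:121413775-121438687), which works on glycoproteins held by *Calr* and *Canx* products, had 3266 and 2604 counts, or 2803 and 3034 normalized counts, and its log2 ratio was 0.11 (0.04 to 0.19). *Pdia4* (chr6:47796141-47813430), which has several thioredoxin-like domains, had 813 and 649 counts, or 697.7 and 756.3 normalized counts, with a log2 ratio of 0.12 (-0.03 to 0.27). *Pdia4* lies 200.8 kb from *Ezh2* on the same chromosome. *Herpud1* (chr8:94386438-94395377), an ER membrane protein that assembles the complex for ER-associated degradation (ERAD), had 830 and 496 counts, or 712.3 and 578.0 normalized counts. It was the second lowest of the 10 genes, with a log2 ratio of -0.30 (-0.46 to -0.14), again inside 1.5-fold.

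**Figure D2:**
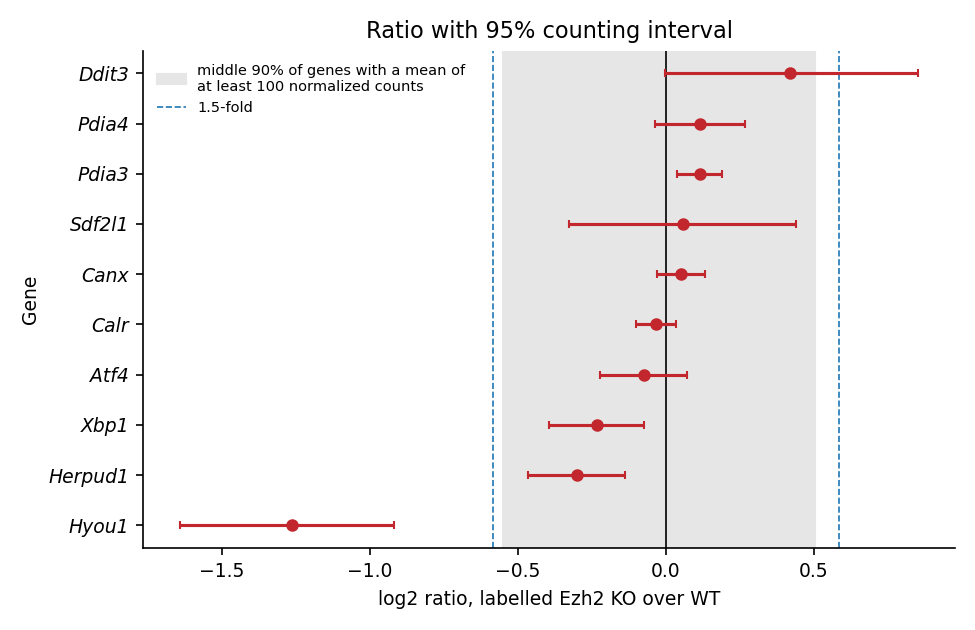
Log2 ratio of the Ezh2 KO-labelled library over WT for each of the 10 genes, with 95% counting intervals, over the middle 90% of genes with a mean of at least 100 normalized counts (grey band, -0.55 to 0.50) and the 1.5-fold lines (dashed). *Hyou1* at -1.26 lies outside the band and the other 9 genes lie inside it.

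Set against all genes, the count of UPR genes past 1.5-fold was 0 of 10 higher and 1 of 10 lower. Of the 12588 genes tested, 10.5% were higher and 10.0% lower by this fold. Past 2-fold the counts were also 0 and 1, where 4.91% and 3.90% of all genes tested lay. Most of those genes were weakly expressed. Among the 8083 genes with a mean of at least 100 normalized counts, to which 9 of the 10 belong (not *Ddit3*), 3.15% were higher and 4.08% lower past 1.5-fold, and 0.482% and 0.569% past 2-fold. One gene of 10 is thus a share near the background of all genes tested at 1.5-fold.

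The counting intervals of 3 of the 10 lay below 0 (*Hyou1*, *Herpud1* and *Xbp1*) and that of 1 above (*Pdia3*), while those of the other 6 spanned 0. In the set of 8083 genes, 24.0% lay below and 20.3% above by the same rule, so an interval that excludes 0 was common between these libraries. The intervals of 8 genes lay wholly inside 1.5-fold, so by these intervals depth was not what kept a difference of that size from view. *Ddit3* was the exception besides *Hyou1*. The median log2 ratio of the 10 genes was 0.01, with 5 above 0 and 5 below, against -0.0032 over all genes tested. This median had no stable sign, and it became -0.05 when the trend with length and GC content was removed and -0.03 over the 9 more abundant genes.

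**Figure D3:**
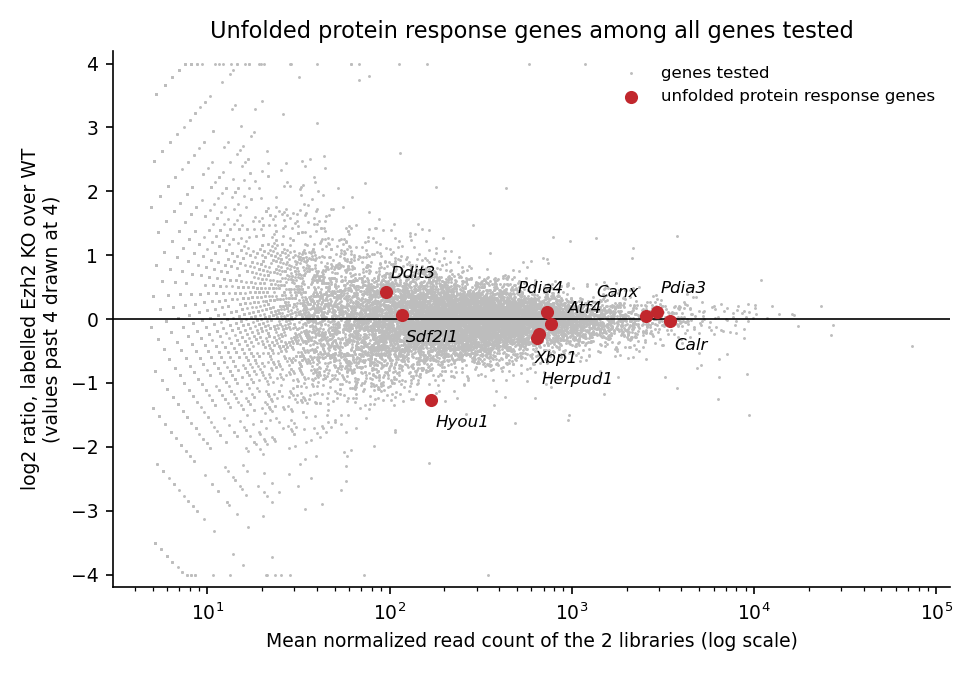
Log2 ratio of the Ezh2 KO-labelled library over WT against the mean normalized read count (log axis) for 12588 genes tested (grey), with the 10 UPR genes in red and ratios past 4 drawn at 4. *Hyou1*, at a mean of 169.2 normalized counts, lies at the lower edge of the cloud and the other genes lie within it.

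The rest of the pathway was examined through 8 lists of 146 other genes, of which 138 were tested. Of these, 4 were higher and 8 lower by more than 1.5-fold, against 10.5% and 10.0% of all genes, and the median log2 ratio was -0.05. The same shares of all genes apply to the counts of each list below. With a mean of at least 100 normalized counts there were 122 genes, 1 higher and 5 lower. Of all 8083 genes at that level, 3.15% were higher and 4.08% lower.

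The 3 sensors had log2 ratios above 0, inside 1.5-fold. *Ern1* had 143.3 and 156.2 normalized counts (log2 ratio 0.12, -0.22 to 0.46) and *Eif2ak3* had 173.3 and 187.6 (0.11, -0.19 to 0.42). *Atf6* had 218.8 and 270.4 normalized counts, a log2 ratio of 0.30 (0.04 to 0.57). Of 10 sensors and relatives tested, 7 lay above 0 and 3 below, with a median of 0.12. *Creb3l2*, a membrane-bound factor related to ATF6, was lower by more than 1.5-fold (181.1 and 115.4 normalized counts, log2 ratio -0.65), and *Creb3l3* was the gene past that fold in the other direction, at 4 and 9 counts.

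Genes that set and reverse the phosphorylation of eIF2α, through which PERK slows translation, centred on a log2 ratio of -0.04 (median of 12 genes). *Ppp1r15a*, which encodes the phosphatase subunit GADD34 and so restores translation, had 2112 and 881 counts, or 1812 and 1027 normalized counts. Its log2 ratio of -0.82 (-0.94 to -0.71) was the only one past 1.5-fold in the list. The 10 immediate-early genes were lower as well (median log2 ratio -0.88), and their part in the value of *Ppp1r15a* was not tested. The partner subunit *Ppp1r15b*, which is made without stress, had a log2 ratio of -0.18 (-0.38 to 0.02), a gene named after its value was seen.

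Targets of ATF4 and CHOP centred on a log2 ratio of -0.30 (median of 23 genes), with 17 below 0 and 6 above, where 50.4% of all genes tested lay below 0. With every gene that had a count the median was -0.15, since *Slc7a11*, *Atf3* and *Chac1*, at 1 to 7 counts in a library, then enter with ratios above 0. Past 1.5-fold, 2 were higher and 3 lower, where 10.5% and 10.0% of all genes tested lay. *Psat1*, of serine synthesis, had 599.0 and 384.6 normalized counts (log2 ratio -0.64), and *Nupr1*, a stress-induced chromatin protein, had 349.3 and 220.2 (-0.66). *Tnfrsf10b*, a death receptor, had 27 and 9 counts. In the other direction *Vldlr*, a lipoprotein receptor, had 109.8 and 185.3 normalized counts (0.75), and *Atf5* had 5 and 10 counts. *Asns*, the asparagine synthetase that ATF4 induces, was higher but inside 1.5-fold, with 275.5 and 410.2 normalized counts (0.57, 0.35 to 0.80). The pseudokinase gene *Trib3*, a target of both factors, had 516.6 and 478.9 normalized counts (-0.11, -0.29 to 0.07). *Psat1* and *Asns*, both of amino acid synthesis, thus lay on opposite sides of equality. *Phgdh*, also of serine synthesis, lay below equality like *Psat1*, with 2732 and 1930 normalized counts (-0.50, -0.59 to -0.42).

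The next list held ER chaperones of Hsp70 and Hsp90 type, their cochaperones and other ER folding genes. It centred on a log2 ratio of -0.12 (median of 17 genes), 12 below 0 and 5 above. *Hspa5*, which encodes BiP, the main ER chaperone and the partner of HYOU1, had 3306 and 1791 counts, or 2837 and 2087 normalized counts. It was lower inside 1.5-fold (log2 ratio -0.44, -0.53 to -0.36). *Hsp90b1*, which encodes GRP94, had 1491 and 1400 normalized counts (-0.09, -0.20 to 0.02). The BiP cochaperone genes *Dnajb9* (132.2 and 110.7 normalized counts, -0.25) and *Dnajc3* (824.7 and 716.7, -0.20) also lay inside. Past 1.5-fold were 1 lower gene, the collagen chaperone *Serpinh1* (68 and 24 counts), and 1 higher gene, *Dnajc25* (31 and 45 counts).

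Glycoprotein folding and degradation genes gave few differences of that size. In the calnexin cycle, *Mogs*, the glucosidase that first trims N-glycans, was the only gene of 6 past 1.5-fold, with 1455 and 934.6 normalized counts (log2 ratio -0.64, -0.76 to -0.52), and the median was -0.22, or -0.14 with every gene that had a count. Of 19 further disulfide isomerases and oxidases, 0 were past 1.5-fold in either direction. The most abundant of them, *P4hb*, had 3051 and 2552 normalized counts (-0.26, -0.34 to -0.18). Their median was -0.0022. It lay at -0.11 once the dependence on length and GC content was removed, and turned positive under TMM (8.4e-05) and total-count (0.03) scaling and with every gene that had a count (0.0078). In ERAD, 1 of 28 genes was lower past 1.5-fold, *Fam8a1* at 49 and 17 counts, and 0 were higher. *Sel1l*, the scaffold of the ERAD ligase, had 874.4 and 748.1 normalized counts (-0.22, -0.37 to -0.08), and *Edem1*, which directs misfolded glycoproteins to it, had 287.5 and 256.4 (-0.16, -0.42 to 0.08). The median of the ERAD list was -0.01, with a sign that turned under total-count scaling. Of 23 genes of the translocon and signal peptidase, 0 were past 1.5-fold, and their median was 0.05. *Creb3l3*, *Tnfrsf10b*, *Atf5*, *Slc7a11*, *Atf3*, *Chac1*, *Phgdh*, *Serpinh1*, *Dnajc25* and *Fam8a1* were named after their values were seen.

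**Figure D4:**
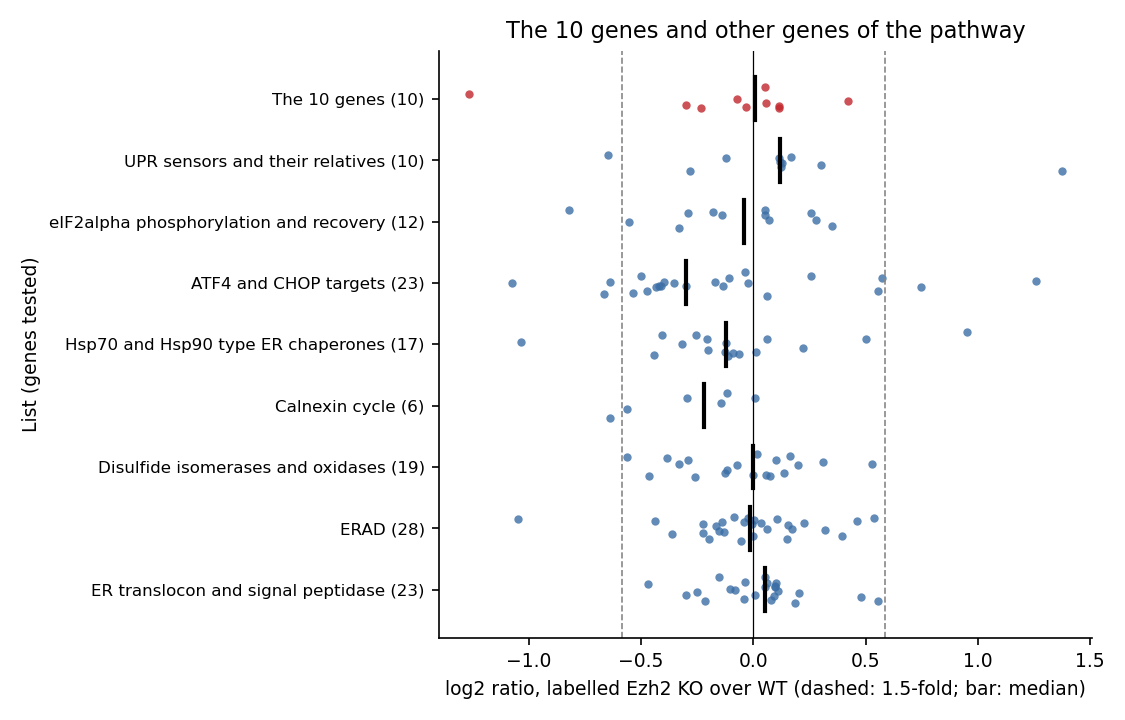
Log2 ratio of the Ezh2 KO-labelled library over WT for the 10 UPR genes (red) and the tested genes of the 8 pathway lists (blue), with each list's median (bar) and the 1.5-fold lines (dashed). The list medians run from -0.30 for the ATF4 and CHOP targets to 0.12 for the sensors and their relatives.

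Genes whose promoter window held an ERSE were also followed, *Calr* and *Canx* among them. Of 16 such genes tested, 2 were higher and 2 lower past 1.5-fold, with a median log2 ratio of -0.03. Of all 9623 genes tested that had a window, 10.1% were higher and 9.78% lower. Of 265 genes tested with a C/EBP-ATF response element, 29 were higher and 22 lower, and the median was 0.01.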

How the data were processed

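Counts were deposited by the authors as raw reads per gene symbol, without normalization. Per the methods and the labels, RNA was amplified with a SMARTer low-input kit, libraries had 8 cycles of PCR, and single-end reads (61 cycles) were aligned to mm10 with TopHat2 2.0.13 and Bowtie2 2.1.0 using the iGenomes annotation. StringTie is named for raw counts, but each file ends with the 5 entries that htseq-count writes, so the counter and its use of strand are unsettled. These entries (56.1% of all in WT and 56.9% in the Ezh2 KO-labelled library) stayed out of the totals. Reads with several alignments enter no gene count, so genes with near-identical copies may be undercounted.

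Here counts were divided by DESeq2 1.42.0 size factors (1.17 for WT and 0.858 for the Ezh2 KO-labelled library; R 4.3.3), and log2 ratios used a pseudocount of 1. Genes with a mean of at least 1 CPM were compared. With 1 library per group, no model could be fitted, and past a fold of 1.5 (also 2) stands in for a test. Intervals of ratios are exact conditional binomial (Clopper-Pearson) intervals without pseudocount; those of single counts are exact Poisson. Positions and exon lengths came from GENCODE M21 (GRCm38), matched for 24055 of 24421 symbols. The ratio and interval code was tested on simulated data. The 10 genes and the lists were chosen with earlier results of these data known. Named genes were the 10, *Ezh2*, 13 fixed pathway genes, and in each list up to 3 per direction past 1.5-fold with a mean of at least 100 normalized counts. Alternatives were TMM scaling (edgeR 4.0.16), total-count scaling, other pseudocounts, filters and folds, size factors off X and Y, and removal of a lowess trend with length and GC content (statsmodels 0.14.6). Python 3.11.15, scipy 1.17.1 and matplotlib 3.10.9 were used.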

Additional observations from a re-analysis of the deposited data

Results flagged for a closer look

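Reads with several alignments, which lie outside the gene counts, made up 12.3% of all entries in the Ezh2 KO-labelled library and 10.7% in WT. They are deposited as 1 total per library, so their share from copies of UPR genes was not tested.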

How the results depend on the processing

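No paired analysis was possible because only 1 library stood on either side. The log2 ratios of the 10 genes stayed within their counting intervals under all 7 scaling, pseudocount and trend settings, and *Hyou1* ranged from -1.27 to -1.23. Size factors without the eosinophil, granulocyte and immediate-early lists were chosen after seeing the data, as was the length of the longest coding transcript. The count of the 10 genes past the fold changed only at a threshold of 0.32 on the log2 scale, where 1 (*Ddit3*) was also higher. Counts over more genes moved with scaling, trend, filter and fold. Against 4 higher and 8 lower pathway genes, and 1321 and 1261 of all genes, total-count scaling gave 6 and 8, and 1409 and 1158. Removing the trend with length and GC content gave 4 and 9, and 1217 and 1308, so that over all genes the lower then outnumbered the higher. Including every gene with a count gave 9 and 8 pathway genes and 2225 and 2253 of all genes. A mean of at least 10 CPM gave 1 and 5 pathway genes and 443 and 568 of all genes, and a mean of at least 100 normalized counts gave 1 and 5, and 255 and 330. The 2-fold threshold gave 2 and 3, and 618 and 491, and the log2 threshold of 0.32 gave 14 and 28, and 2538 and 2638. The medians of the ATF4 and CHOP targets and of the calnexin cycle moved most with the filter, from -0.33 to -0.15 and from -0.30 to -0.14. Depth limits *Ddit3* and *Sdf2l1* most, and without replicates the spread between animals and preparations is unknown.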
